A study of Mus musculus with 15 samples.

Results

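Knockout bones after joint surgery were compared with wild-type bones after sham surgery, using 10 of the 15 libraries of the series, 5 in each group. Destabilization of the medial meniscus (DMM) is an operation that cuts the ligament anchoring the meniscus, which overloads one side of the knee and leads to osteoarthritis. The knockout DMM group consisted of Dmp1-Cre;Pvalb fl/fl male mice, in which Cre recombinase under the Dmp1 promoter removes floxed parts of Pvalb. The sham group consisted of male C57BL/6J wild-type mice whose joint capsule was opened while the ligament stayed whole. All mice were 8 weeks old at surgery, and RNA was taken from tibial subchondral bone, the bone plate under the joint cartilage, 8 weeks later. A further 5 libraries came from wild-type bones after DMM and are given beside the others where a value needs them. Every gene that reached 1 FPKM in 5 or more of the 15 libraries was included, which was 13653 of 55335 gene IDs. FPKM are fragments normalised to transcript length and library size. Surgery and genotype both differed between these groups, so the 2 effects cannot be told apart. None of the 15 libraries came from a knockout mouse with sham surgery. Dmp1-Cre is known to act in late osteoblasts and some other cells as well as in osteocytes.

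Osteocytes are cells buried in bone matrix that sense load through changes in membrane tension, fluid flow and intracellular calcium. They pass signals to osteoblasts, which build bone, and to osteoclasts, which resorb it, among them the Wnt inhibitor sclerostin and the osteoclast factor RANKL. In osteoarthritis the subchondral bone is remodelled, and connective tissue, vessels and nerve fibres can grow into it from the marrow and the joint margin. Parvalbumin, the product of Pvalb, is a calcium-binding protein best known from fast skeletal muscle and certain neurons.

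The FPKM of each library summed to between 375453 and 468423, and between 12592 and 13510 gene IDs reached 1 FPKM. Depth is unknown because the table gives no counts. Markers of the labelled tissue were present: 10 of 12 osteocyte, all 18 osteoblast and 14 of 15 osteoclast genes looked for were among the genes tested. Libraries also held RNA of marrow, muscle, fat and connective tissue, so in these whole-tissue samples fewer cells of a type and less RNA per cell cannot be told apart. Knockout DMM replicates 1 and 4 and wild-type DMM replicate 3 lay far out on the first principal component, which held 32.2% of the variance. Their scores were 34.3, 32.12 and 46.2, against -20 to 0.993 in the other 12 libraries. Without these 3 libraries, 14 of the 38 gene list medians described below turned sign and 17 more moved by over 1.5 times, and each of these is given with and without them.

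The targeted gene was examined first. Pvalb (ENSMUSG00000005716) was 28.7, 23.7, 162, 88.4 and 166 FPKM in knockout DMM replicates 1 to 5 and 71.3, 490, 300.3, 15.8 and 402 FPKM in sham replicates 1 to 5. The groups overlapped, and transcripts of the gene were present in all 5 knockout libraries. The log2 difference was -1.07 (SE 0.94, limma adjusted p = 0.566; exact two-sided permutation p = 0.325). Omitting sham replicate 2 gave -0.64, and omitting sham replicate 4 gave -1.86. Ckm, the creatine kinase of muscle, varied over a like range, from 50.9 to 325 FPKM in knockout and from 10.6 to 456 FPKM in sham libraries. The ratio of Pvalb to Ckm was 0.56 ± 0.19 (SD, n = 5) in knockout and 1.13 ± 0.20 in sham bones, and the 2 groups did not overlap. The highest knockout ratio was 0.88 and the lowest sham ratio 1.01, a log2 difference of -1.04 (exact two-sided permutation p = 0.00794, the smallest that 5 against 5 libraries allow). The same ratio in wild-type DMM bones was 1.29 ± 0.27 (1.04 to 1.73), above all knockout ratios, a difference that was not tested. The ratio was chosen with earlier results of these data known. A ratio to the mean of 20 fast muscle genes gave -0.94 (exact permutation p = 0.0159).

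**Figure D1:**
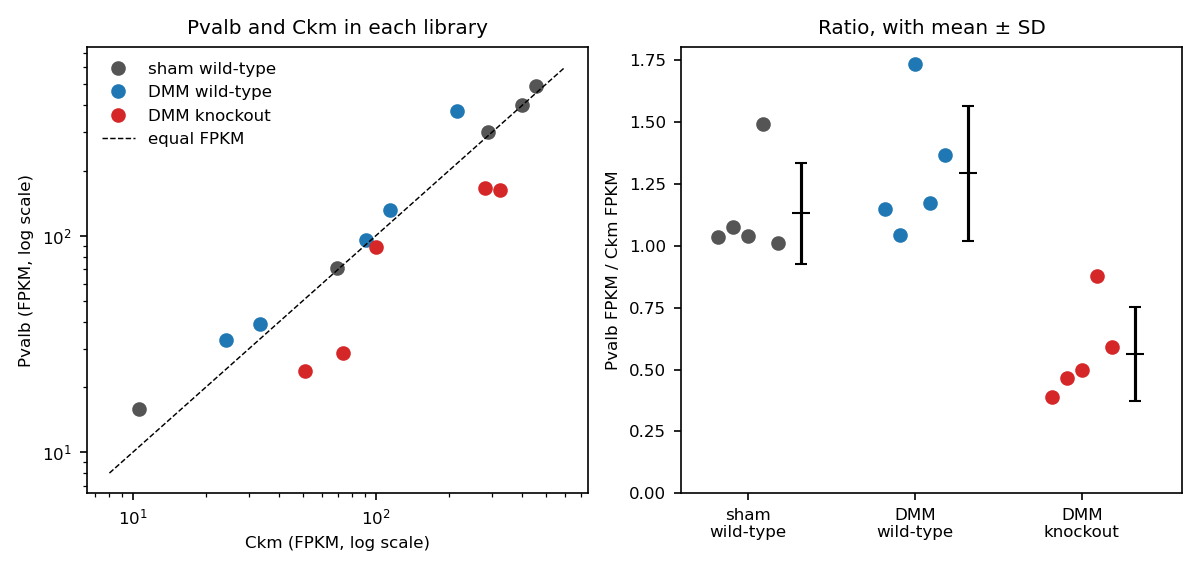
Pvalb against Ckm in each library on log axes (left, FPKM) and the ratio of the 2 genes (right; points are libraries, bars are mean ± SD of 5). The knockout ratios run from 0.39 to 0.88 and lie below all sham ratios, of which the lowest is 1.01.

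Across all genes, 4 of 13653 rose in knockout DMM bones and 0 fell, at a limma adjusted p (Benjamini-Hochberg) under 0.05, which is 0.0293% of genes. The 4 were AC117239.2, Osm, Gm45222 and Gm26917. An unadjusted p under 0.05 was reached by 1430 genes (10.5%), 797 with higher and 633 with lower values in the knockout DMM bones. For 308 genes (2.26%) the ranges of the 5 knockout and the 5 sham libraries were separate, 164 higher (1.2%) and 144 lower (1.05%). Most of these differences were small, with a median size of 0.31 log2 units, and only 9 of the higher and 5 of the lower genes differed by at least 1. The median difference over all genes was -0.01 and the median SE 0.12. Median-of-ratios scaling gave 7 genes, 5 higher and 2 lower, and leaving out the 3 far libraries also gave 7, 5 higher and 2 lower. The count fell to 2 without sham replicate 1, sham replicate 2, knockout replicate 1 or knockout replicate 5, and reached 7 without knockout replicate 2 and 8 without knockout replicate 4.

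**Figure D2:**
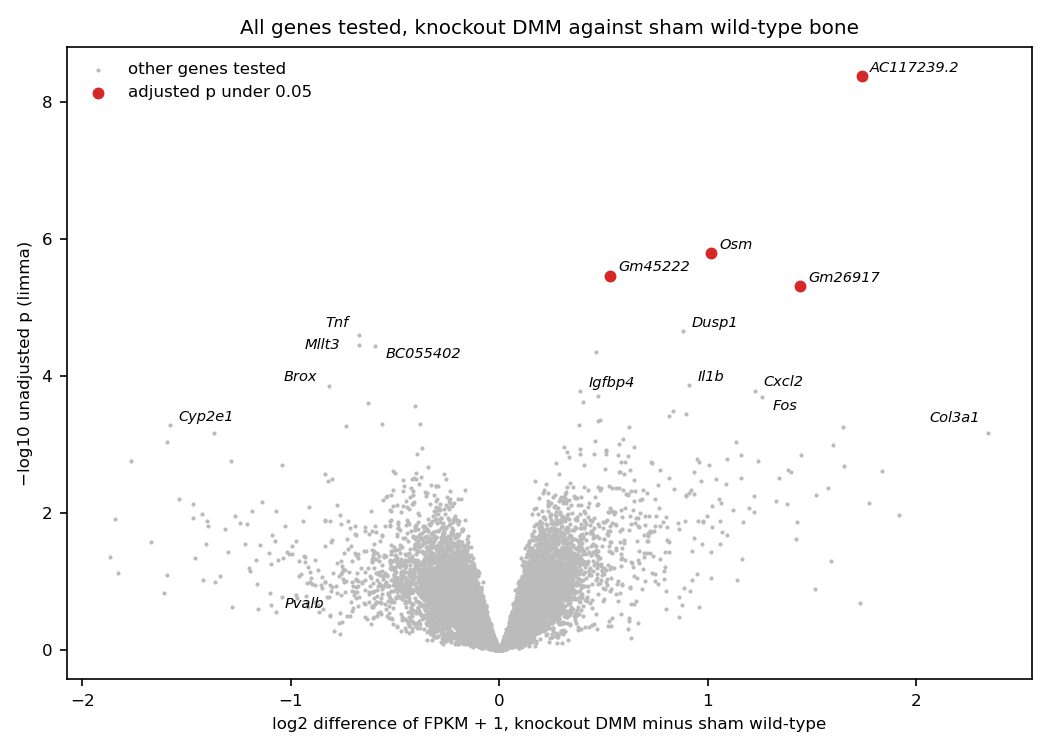
Each point is 1 of 13653 genes, with the log2 difference of FPKM + 1 (knockout DMM minus sham) on the x axis and −log10 of the unadjusted limma p on the y axis. The 4 genes past the threshold, in red, all lie on the side of higher values in knockout DMM bones.

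Oncostatin M was the 1 named protein-coding gene that rose. Osm (ENSMUSG00000058755) encodes a cytokine of the gp130 family, made mainly by macrophages, neutrophils and T cells, that acts on osteoblasts, osteocytes and stromal cells. Its level was 16.7, 11.3, 11.1, 11.8 and 16.5 FPKM in knockout DMM replicates 1 to 5 and 6.52, 4.98, 6.26, 6.34 and 6.28 FPKM in sham replicates 1 to 5. The lowest knockout library was well above the highest sham library. The mean was 13.5 ± 2.85 against 6.07 ± 0.619 FPKM (SD, n = 5), a ratio of 2.22 and a log2 difference of 1.02 (SE 0.13, limma adjusted p = 0.011). The call was lost without the 3 far libraries (0.97, adjusted p = 0.0513) and held without any single library. Wild-type DMM bones had 7.55, 9.12, 10.8, 11 and 10.9 FPKM, values between those of the other groups in every library. The knockout DMM bones exceeded the wild-type DMM bones by 0.40 log2 units, which did not pass the test of that difference (limma adjusted p = 0.935).

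AC117239.2 (ENSMUSG00000117621) had the smallest p. It was 6.75, 5.29, 6, 9.26 and 7.39 FPKM in knockout DMM replicates 1 to 5 and 1.58, 1.51, 1.53, 0.857 and 1.34 FPKM in sham replicates 1 to 5, a ratio of 5.09. Every knockout library was above every sham library and above every wild-type DMM library, of which the highest was 2 FPKM. On the log2 scale it differed by 1.74 (SE 0.14, limma adjusted p = 5.73e-05). The call was kept in all 26 other settings. In a mouse transcript set of another build, 68.9% of the 31-base words of its transcript also occurred in transcripts of Hspe1, the small subunit of the mitochondrial chaperonin, so the split of reads between these genes is uncertain. Hspe1 itself was 46.5 ± 9.71 FPKM in knockout and 36.6 ± 4.04 in sham bones (limma adjusted p = 0.473).

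The other genes that rose carry only locus names. Gm26917 was 211, 164, 131, 266 and 160.1 FPKM in knockout DMM replicates 1 to 5, and 58.1, 59.3, 87, 78.3 and 53.1 FPKM in sham replicates 1 to 5. The groups were far apart, with a log2 difference of 1.44 (SE 0.21, limma adjusted p = 0.0169). Wild-type DMM bones stood at 123 to 229 FPKM, above all sham libraries and overlapping the knockout range. The call was lost in 7 of 26 settings, among them a fit of the 10 libraries alone (adjusted p = 0.064), the omission of sham replicates 1, 2 or 5 (adjusted p = 0.0668, 0.0815 and 0.0799) and of knockout replicates 1 or 5 (adjusted p = 0.0664 and 0.0585). Gm42418, another abundant noncoding RNA, was 216 FPKM in knockout and 126 in sham bones on average (adjusted p = 0.469), and Rpph1, the RNA of RNase P, was 4.33 and 1.99 FPKM (adjusted p = 0.253). Gm45222 was 1.56, 1.7, 1.56, 1.22 and 1.61 FPKM in knockout and 0.656, 0.588, 0.706, 0.908 and 0.91 FPKM in sham libraries. The groups did not overlap, but both lay near 1 FPKM (log2 difference 0.53, adjusted p = 0.0156), and the call was lost in 8 of 25 settings, including the omission of sham replicates 1, 2 or 3 and of knockout replicates 1, 3 or 5 (adjusted p = 0.0668, 0.0729, 0.059, 0.0567, 0.0529 and 0.0635).

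**Figure D3:**
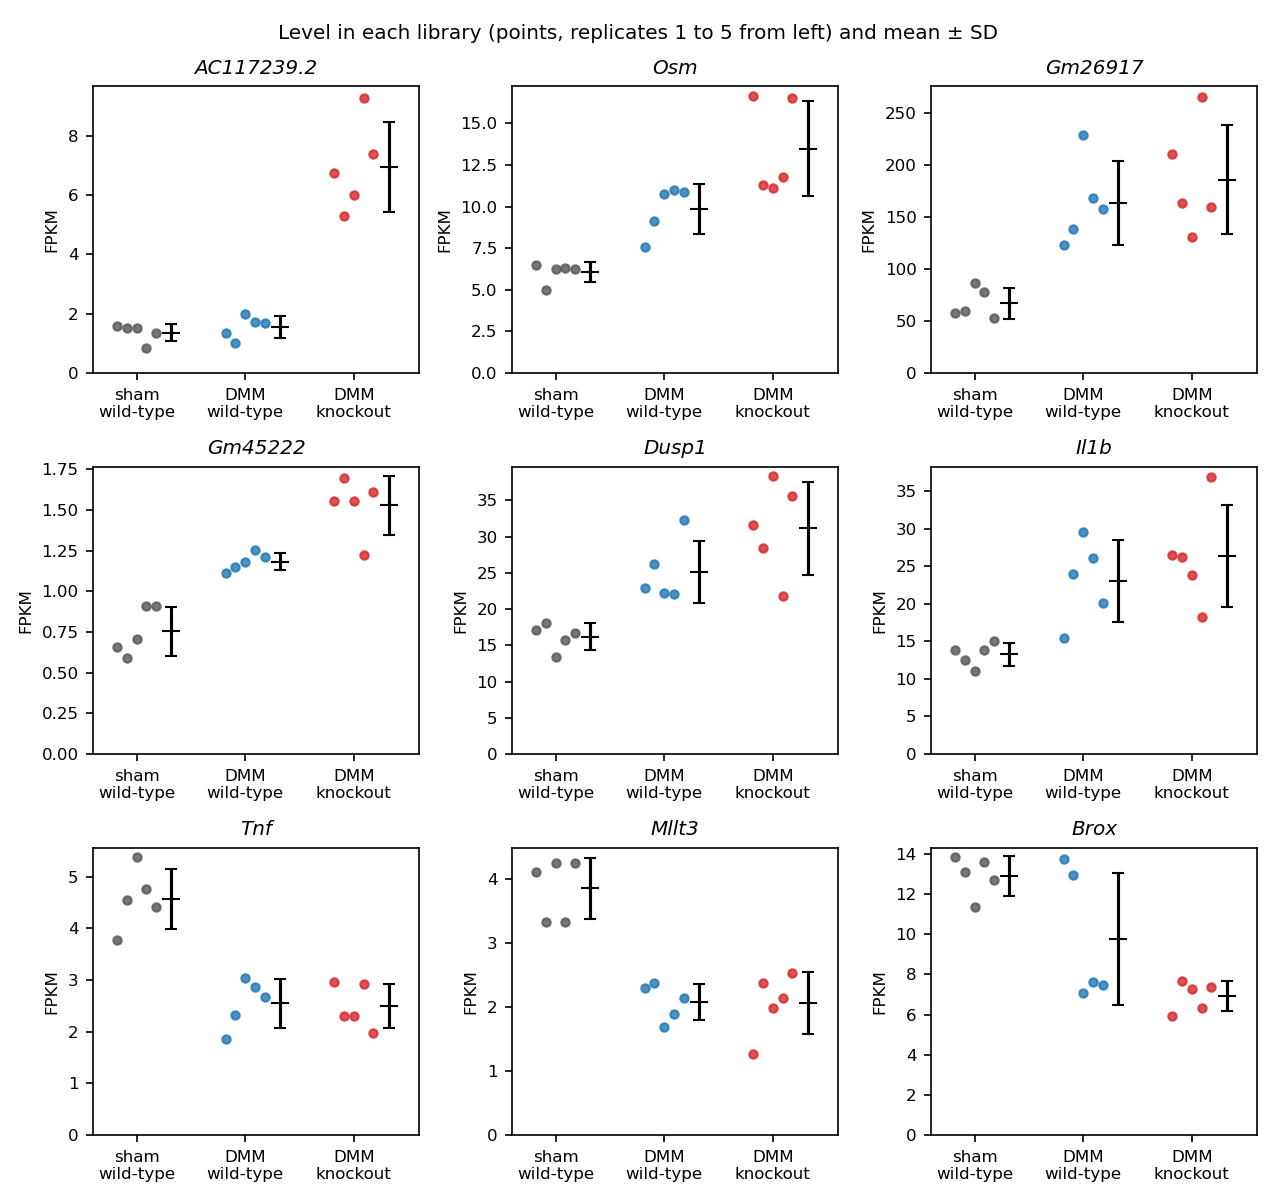
FPKM of 9 genes in each library, replicates 1 to 5 from left in each group, with mean ± SD of 5. AC117239.2, Osm, Gm26917, Gm45222, Dusp1 and Il1b have all knockout DMM libraries above all sham libraries, and Tnf, Mllt3 and Brox have them all below.

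Several genes that cells switch on within minutes of a stimulus had higher values in knockout DMM bones without passing the test. Dusp1 encodes a phosphatase that switches off MAP kinases, and Fos a subunit of the transcription factor AP-1. Il1b encodes the inflammatory cytokine interleukin 1 beta and Cxcl2 a chemokine that draws neutrophils. The bases upstream of their start sites are shown for the genes in which a script found either of 2 motifs, so that these can be read beside the values. Capitals mark matches on either strand to TGACGT, the core of the cAMP response element, or to the NF-kB consensus. The sequences are from RefSeq on GRCm38.p6 and give the 250 bases before the start of Dusp1 (chr17:26508473-26508722, minus strand), Fos (chr12:85473640-85473889, plus strand) and Cxcl2 (chr5:90903649-90903898, plus strand).
Dusp1: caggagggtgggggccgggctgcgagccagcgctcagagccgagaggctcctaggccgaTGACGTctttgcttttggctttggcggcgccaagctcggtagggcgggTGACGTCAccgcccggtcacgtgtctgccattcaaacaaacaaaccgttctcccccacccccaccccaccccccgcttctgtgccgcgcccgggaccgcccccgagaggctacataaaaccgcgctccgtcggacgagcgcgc
Fos: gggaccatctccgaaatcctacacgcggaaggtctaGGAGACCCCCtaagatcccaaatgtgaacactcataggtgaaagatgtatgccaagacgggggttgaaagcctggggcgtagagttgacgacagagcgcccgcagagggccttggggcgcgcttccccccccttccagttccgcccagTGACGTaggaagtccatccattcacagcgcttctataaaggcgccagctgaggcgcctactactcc
Cxcl2: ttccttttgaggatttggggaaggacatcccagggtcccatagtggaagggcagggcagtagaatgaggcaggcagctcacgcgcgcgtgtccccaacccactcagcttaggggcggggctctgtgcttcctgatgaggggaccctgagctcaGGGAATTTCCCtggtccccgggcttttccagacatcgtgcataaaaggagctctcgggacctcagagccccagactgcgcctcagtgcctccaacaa
In windows of 300 bases, from 250 before to 50 after the start, Dusp1 held 2 separate matches to TGACGT, Fos held 1 match to TGACGT and 1 to the NF-kB consensus, and Cxcl2 held 1 to the NF-kB consensus, overlapping matches being counted as 1. The windows of Il1b and Tnf held no match, and none of the 5 windows held TGANTCA, the AP-1 site. Osm had no entry among the promoter sequences used, so its window could not be examined. Of 32851 mouse promoter windows of this length, 7.51% held TGACGT, 7.81% held TGANTCA and 4.51% held the NF-kB consensus. A match describes these letters only.

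Dusp1 was 31.6, 28.4, 38.4, 21.8 and 35.6 FPKM in knockout DMM replicates 1 to 5 and 17.1, 18.1, 13.3, 15.7 and 16.8 FPKM in sham replicates 1 to 5. All knockout libraries were above all sham libraries, with a log2 difference of 0.88 (SE 0.14, limma adjusted p = 0.0575). Wild-type DMM bones had 25.1 ± 4.33 FPKM. Dusp1 passed the test in 7 of 26 other settings, among them median-of-ratios scaling (adjusted p = 0.0229), the omission of knockout replicate 4 (1.00, adjusted p = 0.00632) or of wild-type DMM replicate 5 (adjusted p = 0.0352), and the omission of the 3 far libraries (1.03, adjusted p = 0.0361). Fos was 19.6, 19.8, 22.6, 13.8 and 31.8 FPKM in knockout and 7.82, 11, 6.22, 6.07 and 10.6 FPKM in sham libraries. These groups did not overlap either (log2 difference 1.26, adjusted p = 0.187). Junb, another AP-1 subunit, had 41.1 ± 3.27 against 32.1 ± 5.33 FPKM (adjusted p = 0.469), and Zfp36, which promotes decay of cytokine mRNAs, 33.5 ± 3.78 against 26.8 ± 1.89 FPKM (adjusted p = 0.469). Of 11 immediate early and heat shock genes tested, 0 passed in either direction and 9 had a positive difference, with a median of 0.19, or 0.33 without the 3 far libraries. Egr1 and Nr4a1, which answer many of the same stimuli, had differences of -0.04 each.

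Inflammatory cytokines went in both directions. Il1b was 26.5, 26.2, 23.8, 18.3 and 36.9 FPKM in knockout DMM replicates 1 to 5 and 13.8, 12.5, 11.1, 13.9 and 15.1 FPKM in sham replicates 1 to 5. The groups did not overlap (log2 difference 0.91, SE 0.18, limma adjusted p = 0.171). Cxcl2 was 3.08, 4.23, 2.37, 0.483 and 2.83 FPKM in knockout and 0.427, 0.267, 0.34, 0.708 and 0.402 FPKM in sham libraries. Knockout replicate 4 lay within the sham range and the other 4 above it (log2 difference 1.23, adjusted p = 0.176). Without that library the difference was 1.52 (adjusted p = 6.75e-05), and without the 3 far libraries, to which it belongs, it was also 1.52 (adjusted p = 0.00127). Tnf, tumour necrosis factor, had lower values: 2.97, 2.31, 2.3, 2.92 and 1.99 FPKM in knockout and 3.77, 4.54, 5.38, 4.77 and 4.42 FPKM in sham libraries. Its groups did not overlap (log2 difference -0.68, SE 0.11, adjusted p = 0.0575), and it passed in 6 of 25 other settings. These included the omission of wild-type DMM replicate 1 (adjusted p = 0.0284), of knockout replicate 4 (adjusted p = 0.0499) and of the 3 far libraries (-0.80, adjusted p = 0.037). Of 11 cytokine genes tested, 1 rose (Osm), 0 fell and 5 had a positive difference, with a median of -0.01. That median was 0.21 without the 3 far libraries and also turned positive in 5 of the 10 fits that each left out 1 of the compared libraries, of which the highest was 0.16 without sham replicate 1. Cxcl12 at 104 against 103 FPKM and the NF-kB inhibitor Nfkbia at 55.7 against 57.3 FPKM had near-equal means. For Osm, Il1b, Cxcl2, Tnf, Dusp1 and Fos the test of knockout against wild-type DMM bones gave log2 differences of 0.40, 0.19, 0.57, -0.02, 0.29 and 0.18, none past the threshold (adjusted p = 0.935 or more). Neutrophil markers were summed to between 20710 and 53730 FPKM in knockout and between 23530 and 31500 in sham libraries, and macrophage markers to between 2796 and 4968 against 3147 and 3691. Their part in the cytokine values was not tested.

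Among named genes with lower values, those with the smallest p after Tnf were Mllt3 and BC055402. Mllt3 encodes a reader of histone acylation in the super elongation complex. It was 1.27, 2.37, 1.99, 2.14 and 2.53 FPKM in knockout DMM replicates 1 to 5 and 4.11, 3.33, 4.24, 3.33 and 4.24 FPKM in sham replicates 1 to 5, without overlap (log2 difference -0.67, SE 0.11, limma adjusted p = 0.0617). BC055402 was 0.352, 0.729, 0.289, 0.277 and 0.434 FPKM in knockout and 0.929, 1.37, 1.01, 1.16 and 1.19 FPKM in sham libraries (-0.60, adjusted p = 0.0617). Wild-type DMM bones stood at 2.08 ± 0.287 FPKM for Mllt3, near the knockout mean of 2.06, but at 1.03 ± 0.223 FPKM for BC055402, near the sham mean of 1.13. BC055402 passed the test without knockout replicate 2 (-0.67, adjusted p = 0.0225) or wild-type DMM replicate 3 (adjusted p = 0.0495). Knockout and wild-type DMM bones differed by -0.02 and -0.52 log2 units in these genes, neither past the threshold (adjusted p = 0.981 and 0.935).

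Brox, which encodes a membrane-associated protein with a Bro1 domain, was 5.91, 7.69, 7.26, 6.34 and 7.38 FPKM in knockout DMM and 13.8, 13.1, 11.3, 13.6 and 12.7 FPKM in sham libraries. The groups did not overlap, with means of 6.92 and 12.9 FPKM (log2 difference -0.82, SE 0.16, limma adjusted p = 0.171). A fit of the 10 libraries alone gave an adjusted p of 0.00886. Wild-type DMM bones were split, with replicates 1 and 2 at 13.8 and 12.9 FPKM and replicates 3 to 5 at 7.06 to 7.62. The RNA-binding protein gene Rbm4b, at 2.67 against 3.83 FPKM (adjusted p = 0.211), the Rab regulator Tbc1d5, at 1.55 against 2.74 FPKM (adjusted p = 0.253), and BC025920, at 0.813 against 1.36 FPKM (adjusted p = 0.253), had knockout libraries all below sham libraries too. Cyp2e1, a cytochrome P450 of fat and liver, was 0.457, 0.969, 0.189, 0.255 and 0.301 FPKM in knockout and 4.78, 5.01, 2.14, 0.598 and 6.65 FPKM in sham libraries. Only sham replicate 4 reached into the knockout range, and without it the log2 difference moved from -1.58 (adjusted p = 0.253) to -1.93 (adjusted p = 0.0202). For Cyp2e1 the mean of wild-type DMM bones was 0.48 ± 0.499 FPKM, near the knockout mean of 0.434 FPKM. Sham replicate 4 also had the lowest summed level of fast muscle genes, at 124 FPKM against up to 4679 in the other sham libraries.

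Of the higher named genes not yet given, Igfbp4, Tfpi and Kng2 had the smallest p. Igfbp4, which binds insulin-like growth factors, was 107, 93.8, 118, 119 and 120 FPKM in knockout DMM and 81.4, 87, 84.6, 82.2 and 88.8 FPKM in sham libraries. The shift was small beside that of Osm but free of overlap (log2 difference 0.39, SE 0.08, limma adjusted p = 0.176), and Igfbp4 passed without knockout replicate 2 (0.45, adjusted p = 0.0359). Tfpi, the inhibitor of tissue factor coagulation, was 6.14 ± 0.78 against 4.14 ± 0.406 FPKM (adjusted p = 0.187). Kng2, a kininogen gene, was 4.55 ± 0.397 against 3.21 ± 0.48 FPKM (adjusted p = 0.2).

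Connective tissue genes had the highest medians among the 38 gene lists, with wide spread between libraries and 0 genes past the threshold. All 16 fibroblast and connective tissue genes tested had a positive difference (median 0.77), as did all 4 tendon and ligament genes (median 1.05) and 10 of 11 matrix protease and inhibitor genes (median 0.33). The median over all 13653 genes was -0.01, with 6539 positive. Unadjusted p was under 0.05 for 9, 3 and 6 genes of these lists, which is to be read beside the 10.5% among all genes. In the same 3 lists, wild-type DMM minus sham medians were 1.10, 1.09 and 0.67, with all 16, 4 and 11 genes positive. Knockout minus wild-type DMM medians were -0.28, -0.06 and -0.27, with 3 of 16, 1 of 4 and 2 of 11 genes positive. Col3a1, a fibrillar collagen of loose connective tissue, was 62.8, 22.5, 231, 103 and 85.9 FPKM in knockout DMM replicates 1 to 5 and 14.6, 21.8, 13.9, 5.11 and 27.8 FPKM in sham replicates 1 to 5. Knockout replicate 2 lay within the sham range and replicate 3 far above it (log2 difference 2.34, SE 0.54, limma adjusted p = 0.292).

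Of the 31 genes of these 3 lists, replicate 3 was the highest knockout library for 26 and replicate 2 the lowest for 18, and sham replicate 4 was the lowest sham library for 28. Lum, a proteoglycan that binds collagen, was 85.7, 48.2, 253, 145 and 120.5 FPKM in knockout and 39.5, 54.2, 38.5, 21.1 and 64.5 FPKM in sham libraries (log2 difference 1.45, adjusted p = 0.375). Mmp2, a gelatinase, was 37.4, 24.7, 82.7, 37.9 and 46.9 FPKM in knockout and 20, 25.9, 16.4, 12 and 26.5 FPKM in sham libraries (1.09, adjusted p = 0.395). In both genes replicate 2 was the lowest knockout library and overlapped the sham group, while sham replicate 4 was the lowest of all 10. Mmp3, a stromelysin, was 5.42 ± 3.18 against 0.924 ± 0.609 FPKM, the secreted protease Htra1 33.6 ± 19.1 against 11.6 ± 4.9 FPKM, and the protease inhibitor Timp1 40.05 ± 22.3 against 13.2 ± 7.19 FPKM (adjusted p = 0.469, 0.432 and 0.469). Tnmd, a marker of tendon cells, was 3.81 ± 2.97 against 0.687 ± 0.625 FPKM (adjusted p = 0.469). Thy1, a surface marker of fibroblasts and T cells, was the 1 gene of these 3 lists with all knockout libraries, at 4.04 to 8.86 FPKM, above all sham libraries, at 3.07 to 3.79 FPKM (log2 difference 0.73, adjusted p = 0.395). Without knockout replicate 3 the fibroblast median was 0.61, without sham replicate 4 it was 0.62, and without the 3 far libraries it was 1.02. With the fast muscle level as a covariate, Col3a1, Lum, Mmp2, Htra1 and Col6a2 passed the test, with log2 differences of 2.44, 1.51, 1.14, 1.45 and 1.3 (limma adjusted p = 0.0347 for Col3a1, 0.0482 for Col6a2 and 0.0459 for the others).

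**Figure D4:**
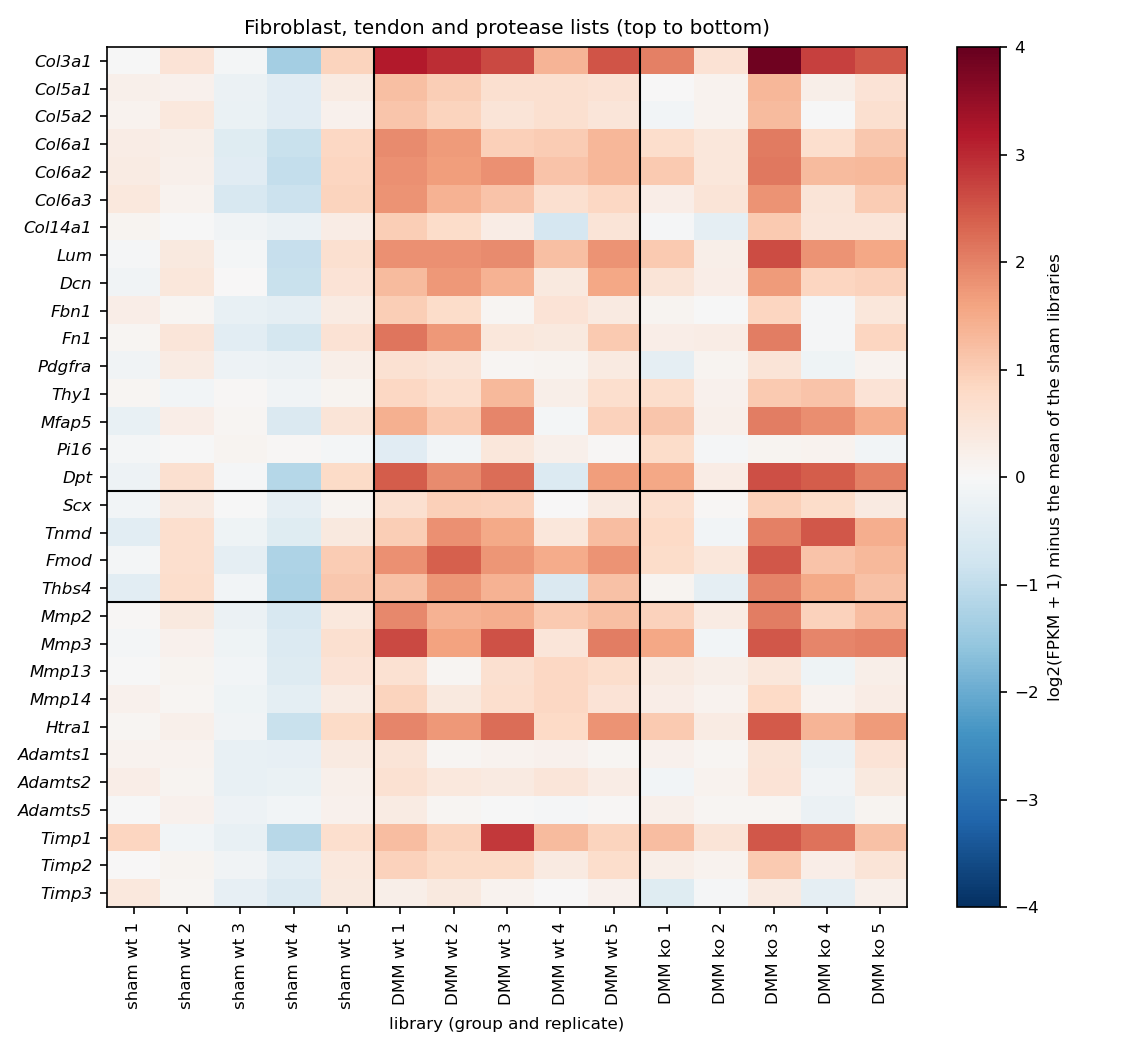
Colour gives log2(FPKM + 1) minus the mean of the 5 sham libraries for each gene of the fibroblast, tendon and protease lists (top to bottom) in all 15 libraries. Knockout DMM replicate 3 is the highest knockout library for 26 of 31 genes and replicate 2 the lowest for 18.

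Genes with a difference of at least 1 log2 unit and no overlap between the groups were looked up after their values were seen. Beside AC117239.2, Osm, Gm26917 and Fos, the higher ones were Crabp2, Prrx2, P4ha3, Crip2 and Slc7a2. Crabp2, which carries retinoic acid to its receptors, was 2.12, 0.374, 5.11, 5.84 and 1.79 FPKM in knockout DMM and 0.0495, 0.179, 0.0953, 0.155 and 0.24 FPKM in sham libraries (log2 difference 1.60, limma adjusted p = 0.364). All knockout values were higher, though replicate 2 only narrowly. Prrx2, a homeobox factor of limb mesenchyme, was 2.43 ± 1.49 against 0.474 ± 0.295 FPKM, and P4ha3, a collagen prolyl hydroxylase, 1.68 ± 1.31 against 0.233 ± 0.121 FPKM (adjusted p = 0.35 and 0.398). Crip2, a LIM-domain protein gene, was 20.6 ± 8.79 against 9.07 ± 1.6 FPKM, and Slc7a2, a transporter of cationic amino acids, 2.11 ± 1.35 against 0.432 ± 0.147 FPKM (adjusted p = 0.456 and 0.469).

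The 5 lower genes of this kind were Mir142b, Msmp, Gm10252, Ms4a2 and Ighv1-81. Ms4a2, the beta chain of the high-affinity IgE receptor of mast cells and basophils, was 3.12, 1.66, 1.26, 3.96 and 1.14 FPKM in knockout DMM and 6.35, 4.76, 5.57, 5.55 and 4.32 FPKM in sham libraries (log2 difference -1.04, limma adjusted p = 0.398). No knockout library reached the sham range. Gm10252 was 1.22 to 2.7 FPKM in knockout and 10.5, 3.98, 14.5, 5.42 and 8.28 FPKM in sham libraries (-1.77, adjusted p = 0.395). Mir142b, the locus of a microRNA of blood cells, was 9.45 ± 3.54 against 25.4 ± 6.43 FPKM, Msmp 1.75 ± 0.91 against 8.05 ± 5.23 FPKM and the antibody segment Ighv1-81 5.5 ± 2.34 against 11.6 ± 1.94 FPKM (adjusted p = 0.292, 0.35 and 0.469).

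Osteocyte, osteoblast and osteoclast genes had medians close to 0. Of 10 osteocyte genes 6 had a positive difference (median 0.05), of 18 osteoblast and bone matrix genes 13 (median 0.06), of 14 osteoclast genes 8 (median 0.06), and 0 of the 42 passed in either direction. Sost, which encodes the Wnt inhibitor sclerostin of osteocytes, was 15.7, 20.6, 15.5, 12.6 and 18.2 FPKM in knockout DMM and 22.4, 29.7, 21.4, 15.2 and 35.8 FPKM in sham libraries. The knockout values were at the lower end of the sham range and overlapped it (log2 difference -0.53, SE 0.19, limma adjusted p = 0.469). Wild-type DMM bones had 23.4 ± 3.6 FPKM of Sost, 0.48 log2 units above the knockout bones (adjusted p = 0.935). Other osteocyte genes had higher values: Ackr3, a scavenger receptor for chemokines, was 10.1 ± 3.9 against 5.72 ± 2.19 FPKM and Gja1, a gap junction protein, 11.9 ± 1.83 against 8.98 ± 2.4 FPKM (adjusted p = 0.469 for both). The mineralization gene Phex (4.61 against 5.63 FPKM) and Dmp1, whose promoter drives the Cre (32.4 ± 9.61 against 50 ± 29.6 FPKM), had lower means (adjusted p = 0.517 and 0.476).

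Osteoblast products were near their sham levels. Bglap, osteocalcin, averaged 421 against 422 FPKM, Col1a1 819 against 868 FPKM and Col1a2, the other chain of type I collagen, 455 against 446 FPKM. Spp1, osteopontin, averaged 966 against 718 FPKM with overlap (log2 difference 0.59, limma adjusted p = 0.473). Among osteoclast genes, the matrix protease Ctsk was 429, 295, 279, 276 and 329 FPKM in knockout DMM and 258, 204, 179.9, 158 and 307 FPKM in sham libraries. Knockout replicates 1 and 5 lay above the highest sham library and the other 3 within the sham range (0.56, adjusted p = 0.469). Oscar, a costimulatory receptor of osteoclasts, averaged 5.98 against 3.99 FPKM and the osteoclast transcription factor Nfatc1 8.54 against 10.9 FPKM (adjusted p = 0.469 and 0.476). The 6 genes of the RANKL, OPG and CSF1 axis had 3 positive differences and a median of 0.01. Without sham replicate 4 the osteocyte and osteoblast medians turned to -0.11 and -0.05, and without sham replicate 3 the osteocyte median was -0.03. The osteocyte, osteoblast and RANKL axis medians were 0.14, 0.30 and 0.12 without the 3 far libraries.

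Cartilage genes had a median of -0.30, with 13 of 17 negative and 0 past the threshold. Collagen genes of cartilage went both ways. Col9a1 (6.34 against 13.4 FPKM) and Col11a2 (57.9 against 77.7 FPKM) had lower means, while Col2a1 averaged 106 FPKM in both groups (limma adjusted p = 0.476, 0.473 and 0.885). Col10a1, the collagen of hypertrophic cartilage, had a higher mean at 69.1 ± 41.2 against 44.7 ± 32.4 FPKM, with overlap (log2 difference 0.76, adjusted p = 0.473). Comp, a matrix protein of cartilage and tendon, stood at 216 ± 99.5 against 126 ± 61.7 FPKM (adjusted p = 0.469). The median turned to 0.05 without the 3 far libraries, and the list's summed level ran from 746 to 1659 FPKM in knockout and from 494.5 to 1823 FPKM in sham libraries.

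Of 14 Wnt genes 9 had a positive difference (median 0.06). The median was 0.36 without the 3 far libraries, -0.03 without sham replicate 4 and -0.02 without knockout replicate 3. The secreted antagonist Sfrp2 was 2.12, 0.731, 5.73, 3.98 and 4.66 FPKM in knockout DMM and 0.468, 1.67, 1.4, 0.269 and 1.18 FPKM in sham libraries, so that 4 of 5 knockout libraries exceeded the sham range (log2 difference 1.06, limma adjusted p = 0.469). Dkk3, another secreted protein, and Dact3, an intracellular antagonist, averaged 7.65 against 2.37 FPKM and 1.26 against 0.695 FPKM (adjusted p = 0.469 and 0.398), while the receptors Lrp5 and Lrp6 had differences of -0.09 and -0.13. Of 10 genes of the insulin-like growth factor (IGF) system 7 were positive (median 0.21). Igfbp6 averaged 37.2 against 13.9 FPKM and Igfbp7 147 against 89.1 FPKM (adjusted p = 0.469 for both). The receptor Igf1r was 4.21, 4.87, 4.47, 3.51 and 4.19 FPKM in knockout and 5.53, 5.21, 4.95, 5.42 and 4.96 FPKM in sham libraries, all lower (-0.25, adjusted p = 0.469).

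TGF-beta and BMP genes were positive in 14 of 21 cases (median 0.05), with the latent TGF-beta binding protein Ltbp1 at 5.74 against 4.41 FPKM (limma adjusted p = 0.469). Mechanosensing genes were positive in 9 of 12 (median 0.13), with Ccn1, a matricellular target of YAP, at 29.7 ± 12.4 against 19.6 ± 6.01 FPKM (adjusted p = 0.469). Calcium-handling genes outside muscle were positive in 8 of 21 (median -0.07). Among them S100a6 and S100a10, small calcium-binding proteins, averaged 130 against 73.8 FPKM and 99 against 68.5 FPKM, and the calcium release channel Itpr3 4.11 against 5.69 FPKM (adjusted p = 0.469 for each). None of the genes of these lists passed in either direction. Their medians without the 3 far libraries were 0.16 for TGF-beta and BMP, 0.22 for mechanosensing and 0.04 for calcium-handling genes.

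Stress and metabolic lists had small medians. Of 11 integrated stress response genes 8 were positive (median 0.29): Atf4, its central transcription factor, was 114, 91, 86.7, 124 and 92.2 FPKM in knockout DMM and 81.3, 70.9, 82.5, 78.2 and 75.2 FPKM in sham libraries. The groups did not overlap, and the 2 highest of these 10 libraries were knockout replicates 1 and 4 (log2 difference 0.37, limma adjusted p = 0.469). Without the 3 far libraries, which include these 2, the list's median was 0.04. Mitochondrial protein folding genes were positive in 10 of 12 (median 0.14), cytosolic ribosomal protein genes in 16 of 16 (median 0.22), oxidative phosphorylation genes in 14 of 22 (median 0.08), and glucose transport and glycolysis genes in 11 of 17 (median 0.09). Without the 3 far libraries these medians were lower for protein folding (0.05), ribosomal (0.05), oxidative phosphorylation (-0.01) and glycolysis genes (0.05). The glycolysis median was -0.01 without knockout replicate 1 alone. Slc2a3, a neuronal and leukocyte glucose transporter, had means of 27.3 FPKM in knockout DMM, 27.8 in sham and 12.1 in wild-type DMM bones. The knockout and sham groups overlapped (-0.04, adjusted p = 0.945), and the test of knockout against wild-type DMM bones was not passed (1.24, adjusted p = 0.935).

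Nnt, the mitochondrial transhydrogenase that makes NADPH, was listed under 2 IDs, whose gene models overlap on 1 strand in the annotation of another build, so reads may be split between them. ENSMUSG00000116207 was listed at 0 in knockout replicates 1 and 3, and was 2.26, 5.37 and 6.93 FPKM in replicates 2, 4 and 5, against 8.31, 6.66, 6.4, 6.31 and 7.69 FPKM in sham libraries. ENSMUSG00000025453 was 3.76, 2.81, 7.5, 0.557 and 0.546 FPKM in knockout and 0.492, 1.46, 0.287, 1.22 and 0.44 FPKM in sham libraries. Knockout replicates 1 to 3 thus had most of their Nnt signal under the second ID and the remaining libraries under the first (limma adjusted p = 0.469 for both IDs). The sum of the IDs was 3.76, 5.07, 7.5, 5.92 and 7.48 FPKM in knockout and 6.69 to 8.81 FPKM in sham libraries. C57BL/6J mice are known to carry a partial deletion of Nnt, and the sources used here do not give the strain of the knockout mice.

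Blood, immune, vessel and muscle lists had 0 genes past the threshold. B cell genes were negative in 11 of 12 (median -0.26), MHC class II genes in 5 of 7 (-0.20), T and NK cell genes in 5 of 8 (-0.16), erythroid genes in 9 of 10 (-0.14), interferon-stimulated genes in 8 of 10 (-0.12) and macrophage genes in 7 of 9 (-0.07). Neutrophil genes were positive in 9 of 11 (0.10), but their median was -0.18 without the 3 far libraries and -0.11 without knockout replicate 1 alone. Without the 3 far libraries the other medians that moved were -0.04 for B cell, -0.07 for MHC class II, 0.02 for erythroid and -0.14 for macrophage genes. Pax5, a B cell transcription factor, was 1.55, 7.04, 6.27, 4.44 and 6.4 FPKM in knockout DMM and 7.96, 8.37, 6.11, 9.39 and 5.51 FPKM in sham libraries (log2 difference -0.55, limma adjusted p = 0.469). Replicate 1 was far below the other knockout libraries, which lay within or near the sham range. Without that library the B cell and MHC class II medians were -0.04 and 0.00237. Il2rb, a receptor chain of T and NK cells, was 2.96, 4.62, 3.95, 4 and 4.64 FPKM in knockout and 5.45, 4.67, 5.7, 5.49 and 4.82 FPKM in sham libraries, all lower (-0.32, adjusted p = 0.469). Emcn, a marker of bone sinusoids, was 2.98, 2.59, 3.04, 2.55 and 2.71 FPKM in knockout and 2.02, 2.13, 1.55, 1.41 and 2.43 FPKM in sham libraries, all higher (0.39, SE 0.10, adjusted p = 0.372). The endothelial list as a whole was positive in 7 of 13 (0.02), with a median of 0.14 without the 3 far libraries and of -0.02, -0.03 and -0.04 without sham replicate 3, sham replicate 4 and knockout replicate 3.

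Fast muscle genes were negative in 17 of 20 (median -0.08), and their summed level ran from 516 to 3130 FPKM in knockout and from 124 to 4679 FPKM in sham libraries. Their median was -0.81 without sham replicate 4, 0.355 without sham replicate 2, 0.21 without the 3 far libraries and 0.36 with array weights, by which noisier libraries count for less. Of the lists not yet described, nerve growth and axon guidance genes were positive in 5 of 7 (median 0.15, or 0.25 without the 3 far libraries). Circadian genes were positive in 3 of 12 (-0.08), with Per1 at 5.66 against 9.56 FPKM (limma adjusted p = 0.469). Adipocyte genes were positive in 3 of 9 (-0.11), with Adipoq at 22.9 against 17.6 FPKM (adjusted p = 0.469). Complement genes were positive in 5 of 11 (-0.01), cell cycle genes in 5 of 12 (-0.01), marrow stromal niche genes in 1 of 8 (-0.04), megakaryocyte genes in 2 of 7 (-0.04), mitochondrial NADPH redox genes in 6 of 11 (0.02) and slow muscle genes in 1 of 3 (-0.43). Without the 3 far libraries most of these medians turned sign, to 0.10 for circadian, 0.03 for adipocyte, 0.23 for complement, 0.02 for cell cycle, 0.19 for marrow stromal niche, 0.02 for megakaryocyte and -0.02 for NADPH redox genes, while the slow muscle median was -0.24. Without knockout replicate 1 alone the circadian, adipocyte and niche medians were 0.00245, 0.02 and 0.07, and without sham replicate 2 alone the slow muscle median was 0.02. Leaving out 1 of the 10 compared libraries turned the sign of 17 of the 38 medians in at least 1 case. Over all 38 lists, 1 of 448 genes tested rose and 0 fell, and 12 were higher and 3 lower without overlap, 3.35% against 2.26% among all genes.

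**Figure D5:**
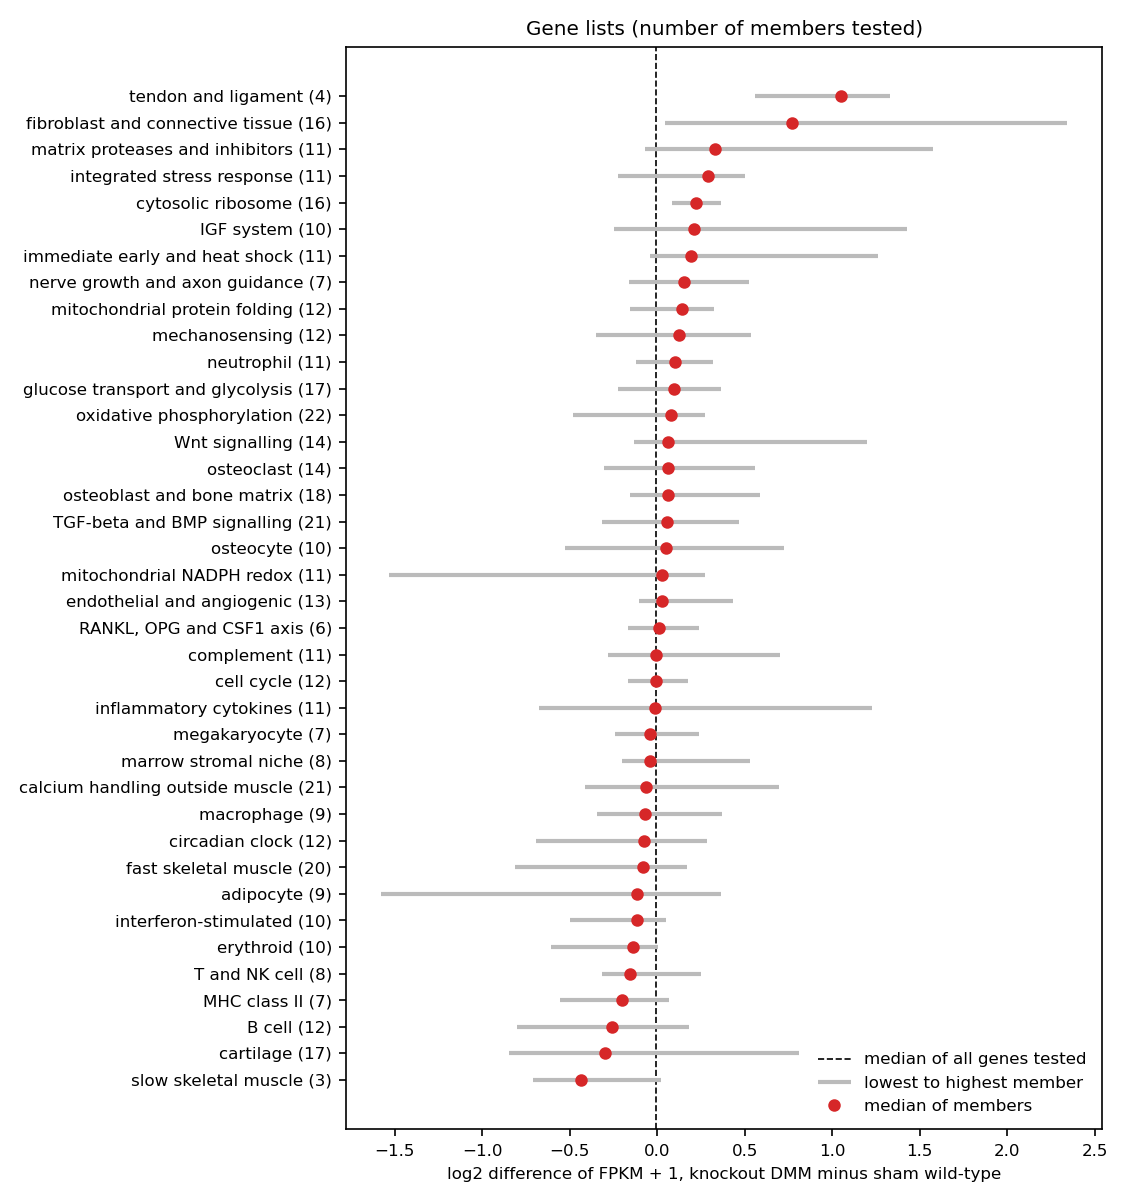
Median log2 difference of FPKM + 1 (red points) and lowest to highest member (grey bars) for the 38 gene lists, with the number of genes tested in brackets and the median of all genes as a dashed line. Tendon (1.05) and fibroblast genes (0.77) have the highest medians, and the other lists lie between -0.43 and 0.33.

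Genes with all 5 knockout DMM libraries outside the range of all 10 wild-type libraries, sham and DMM together, numbered 8 of 13653 (0.0586%). Chance alone also yields such genes among this many, and the count was not compared with that number. The 6 higher ones (0.0439%) included AC117239.2, Osm, Kng2, 0610010F05Rik and AC121967.1, and the 2 lower ones (0.0146%) were Gm9752 and 4833420G17Rik. Osm cleared the wild-type DMM libraries by little, with a lowest knockout value of 11.1 against a highest wild-type value of 11 FPKM. Kng2 was 4.97, 4.38, 4.94, 4.05 and 4.4 FPKM in knockout libraries and at most 3.85 in wild-type libraries. Apart from AC117239.2, Osm and Kng2, these genes differed from sham by 0.17 log2 units or less in size. The count was 128 without the 3 far libraries and 68 without wild-type DMM replicate 3 alone. Of these 8 genes only AC117239.2 passed the test of knockout against wild-type DMM bones (log2 difference 1.63, SE 0.14, limma adjusted p = 0.000135), in which 1 of 13653 genes passed (0.00732%), higher in the knockout. In that comparison 444 genes (3.25%) had an unadjusted p under 0.05, 151 with higher (1.11%) and 293 with lower values (2.15%) in knockout bones, and 52 had separate ranges (0.381%), 18 higher (0.132%) and 34 lower (0.249%).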

How the data were processed

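Bone RNA was sequenced from 3 groups of 5 libraries, which the labels call biological replicates. The authors deposited 1 table of FPKM per gene ID. Per the submitters' processing notes, STAR 2.7.10a and featureCounts 2.0.3 were used with mouse build GRCm39 and FastQC 0.11.9 and Trimmomatic 0.39 are also named. How FPKM were derived is not stated there. Libraries were stranded and poly(A)-selected, per the labels' protocols. FPKM carry no depth, so counting error is unknown and no count test was run.

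From the deposited FPKM, log2(FPKM + 1) was computed, which understates changes of low genes. Of 55335 IDs, 13653 reached 1 FPKM in 5 or more libraries. All 15 libraries entered a single fit in limma 3.58.1 under R 4.3.3, with group means and an intensity trend, which gave every comparison, with Benjamini-Hochberg adjustment over 13653 genes and a threshold of 0.05. It was tested on simulated data with independent noise in each gene and library. Such data lack shifts shared by many genes of a library, like those of the 3 far libraries. Comparisons that share the sham or knockout libraries are not independent. For Pvalb and its ratio to Ckm, an exact two-sided permutation test ran through 252 arrangements. Of 498 entries in 38 gene lists, 497 were found and 448 distinct genes were tested. Where 2 IDs shared a symbol, the ID with the higher mean stood for it in the lists. The members and lists were chosen with earlier results of these data known. Genes were named if past the threshold, if among the 8 smallest p in a direction, or if among the 3 smallest p of a list, and a few more from a list or after their values were seen. A few genes that meet these rules are not reported here. Promoter letters came from RefSeq on GRCm38.p6. That annotation is of another build than the table, so no other coordinates are given.

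Alternatives were another pseudocount, filter, scaling, threshold, moderation, covariates, array weights, a fit of 10 libraries, a replicate block and the omission of each library. The omission of the 3 libraries with far scores on principal component 1, and the count of genes outside all wild-type libraries, were added after seeing the data.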

Additional observations from a re-analysis of the deposited data

Results flagged for a closer look

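In 31 cases the highest or lowest library of a group of 5 stood far from its neighbours by Dixon's criterion, which chance meets in about 1 in 20 groups. Many groups were looked at, so chance alone gives a number of such cases. The 31 were not compared with that number. Among sham libraries, replicate 2 was lowest for Osm (4.98 FPKM), replicate 3 highest for Camp (3357 FPKM) and Hspe1 (43.7 FPKM), replicate 4 highest for Nadk2 (20.98 FPKM), and replicate 5 highest for Slc2a1 (7.03 FPKM) and Serping1 (46.1 FPKM) and lowest for Gpx1 (204 FPKM).

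Among knockout DMM libraries, replicate 1 was highest for Atp5a1 (229 FPKM), Pfkl (14.9 FPKM) and Eno1 (148 FPKM) and lowest for Adipoq (18.7 FPKM), Alas2 (190.5 FPKM) and Rsad2 (17.2 FPKM). Replicate 3 was highest for Nt5e (9.21 FPKM) and Gm10252 (2.7 FPKM), and replicate 4 lowest for Gm45222 (1.22 FPKM).

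Among wild-type DMM libraries, replicate 3 was highest for S100a10 (140.2 FPKM), Timp1 (89.5 FPKM), Myl2 (4.09 FPKM), Myl3 (1.32 FPKM) and Tnnt1 (5.31 FPKM) and lowest for Ms4a1 (3.08 FPKM), Il2rb (2.88 FPKM), Adgre1 (10.2 FPKM) and Ciita (0.31 FPKM). Replicate 4 was lowest for Ackr3 (5.96 FPKM), Lum (95.7 FPKM), Sfrp2 (1.88 FPKM) and Dpt (3.8 FPKM) and highest for Col10a1 (164 FPKM). Replicate 1 was lowest for Msmp (1.13 FPKM).

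AC117239.2 differed between genotypes after the same surgery, by 1.63 log2 units (limma adjusted p = 0.000135), higher in 5 of 5 knockout libraries than in any wild-type DMM library.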

How the results depend on the processing

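The count of 4 genes past the threshold in knockout DMM against sham bones was 7 without a filter, 7 with median-of-ratios scaling, 22 with array weights, 21 with the fast muscle covariate, 7 without the 3 far libraries, 1 at an adjusted p under 0.01 and 9 under 0.1. Leaving out 1 library gave 2 to 8. Of the 22, 13 were higher and 9 lower. Knockout against wild-type DMM bones gave 1 gene, 2 without a filter, 4 with array weights and 1 to 2 when 1 library was left out. Wild-type DMM against sham bones gave 0, with 946 at an unadjusted p under 0.05 in limma, but 2 without a filter, 15 with array weights, 287 with the fast muscle covariate and 0 to 2 when 1 library was left out. The 8 genes outside all wild-type libraries became 128 without the 3 far libraries and 8 to 68 when 1 library was left out. Leaving out libraries can only keep or raise this count. It was 68 without wild-type DMM replicate 3, one of the far libraries, and 14 without wild-type DMM replicate 1. The cause of the changes in these counts was not tested.

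Deviations of same-numbered libraries from their group means correlated at -0.226 to 0.145 between knockout and sham, -0.46 to 0.248 between knockout and wild-type DMM and -0.237 to 0.4 between wild-type DMM and sham libraries, above 0.1 in 4 of the last 5, so no comparison had every pair above 0.1 and the numbers were not taken to pair the samples. With the replicate number as a block 1 gene passed, AC117239.2, and the adjusted p was 0.0767 for Osm, 0.0806 for Gm26917 and 0.118 for Gm45222.

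Of the named genes, 9 (Angpt1, Myl3, Tnnt1, Alas2, Retnlg, Camp, Gp1ba, Slc2a3 and Ckm) changed sign in some setting, and none of those values was past the threshold. With array weights the log2 difference was 0.0202 for Angpt1, -0.152 for Tnnt1, -0.0187 for Retnlg, -0.175 for Camp and 0.46 for Ckm. Without the 3 far libraries it was 0.0423 for Angpt1, -0.226 for Tnnt1, -0.0764 for Retnlg, -0.141 for Camp, 0.0286 for Gp1ba and 0.332 for Ckm. The erythroid covariate gave -0.13 for Tnnt1 and 0.00253 for Slc2a3, and the muscle covariate 0.177 for Ckm. Leaving out 1 library gave -0.711 to 0.0223 for Myl3, -0.372 to 0.000248 for Alas2, -0.132 to 0.0507 for Slc2a3, -0.103 to 0.125 for Tnnt1 and -0.932 to 0.394 for Ckm.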

Other observations

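A pair of antioxidant and cofactor genes varied several-fold between libraries of the sham group and between those of the knockout DMM group. Gpx1, a glutathione peroxidase, stood at 1003, 883.5, 1146, 1149 and 204 FPKM in the sham libraries, and at 274.5, 274.5, 882, 340.0 and 1115 FPKM in those of the knockout DMM group. Nadk2, the mitochondrial NAD kinase, was 6.27, 4.96, 4.65, 20.98 and 5.55 FPKM in sham and 2.85, 18.5, 14.3, 3.5 and 16.6 FPKM in knockout libraries. Neither group was uniform for either gene, and the groups overlapped. In sham bones the library far from the others was replicate 5 for Gpx1 and replicate 4 for Nadk2. These genes were chosen after their values were seen.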
